A study of Mus musculus with 8 samples.

Results

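Unconjugated bile acids with a 24-carbon skeleton were followed in mouse faeces by their degree of oxidation. The members are the 25 masses, of 2429 in the deposited table, that lie within 3 ppm of a neutral formula C24HxOy with 34, 36, 38 or 40 hydrogens and 3, 4, 5 or 6 oxygens. They match 15 of the 16 formulas searched, and C24H34O6 had no match. The samples are faecal extracts of age-matched female C57BL/6 mice, an inbred strain. There were 4 untreated samples and 4 samples collected 24 h after 20 mg of the aminoglycoside antibiotic streptomycin was given by mouth. The age, and whether each sample came from a different animal, are not given in the sources used here. Collection before the dose preceded collection after it, so the effects of the dose and of the later collection cannot be told apart.

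Bile acids are made from cholesterol in the liver, joined to taurine or glycine and passed into the gut. Gut bacteria cut the conjugates, oxidise hydroxyl groups to oxo groups and back, and remove the hydroxyl at the seventh ring carbon through oxo and unsaturated intermediates, which turns cholic acid into deoxycholic acid and chenodeoxycholic acid into lithocholic acid. Mouse liver also makes muricholic acids, which are isomers of cholic acid. The acid group holds 2 of the oxygens, so an acid with 3 oxygens has 1 oxygen on the rings and an acid with 6 has 4. At 40 hydrogens all ring oxygens are hydroxyls, and every 2 hydrogens fewer stand for 1 oxo group or double bond. The instrument separates formulas and not isomers, so a formula stands here for all acids that share it, and a match is not an identification. Relative intensities were compared between samples for the same mass; different compounds ionise differently, so the levels of 2 masses do not give their relative amounts.

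The masses listed in untreated samples only, 7 of the 25, were mostly those with few oxygens. Of all 2429 masses, 646 were listed in untreated samples only, a similar share. All 5 masses with 3 oxygens were listed in every untreated sample and at 0 in every streptomycin sample. Of 8 masses with 4 oxygens, 6 were lower, 1 of them listed in untreated samples only, and 2 did not pass. Of 8 masses with 5 oxygens, 3 were lower, 2 higher, and the other 3 did not pass. Of 4 masses with 6 oxygens none was lower, 3 were higher and 1 did not pass (limma, adjusted p under 0.05). In all, 14 of the 25 masses were called lower and 5 higher, where 36.7% of all 2429 masses were called lower and 52.7% higher. Masses listed in one group only were all called, since a 0 was replaced by the lowest value of the table. Among the 15 C24 masses listed in both groups 7 were lower and 2 higher, or 46.7% and 13.3%, against 38.7% and 20.7% of all 633 masses listed in both groups. The values of the groups did not overlap for 8 of the 15 that were lower and 2 that were higher, against 39.7% and 20.1% of the 633. The count lower is thus near the background, and what follows rests on single masses and on ratios within a sample. The median log2 change of the 15 masses was -1.46, and that of the 633 masses was -0.47.

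**Figure D1:**
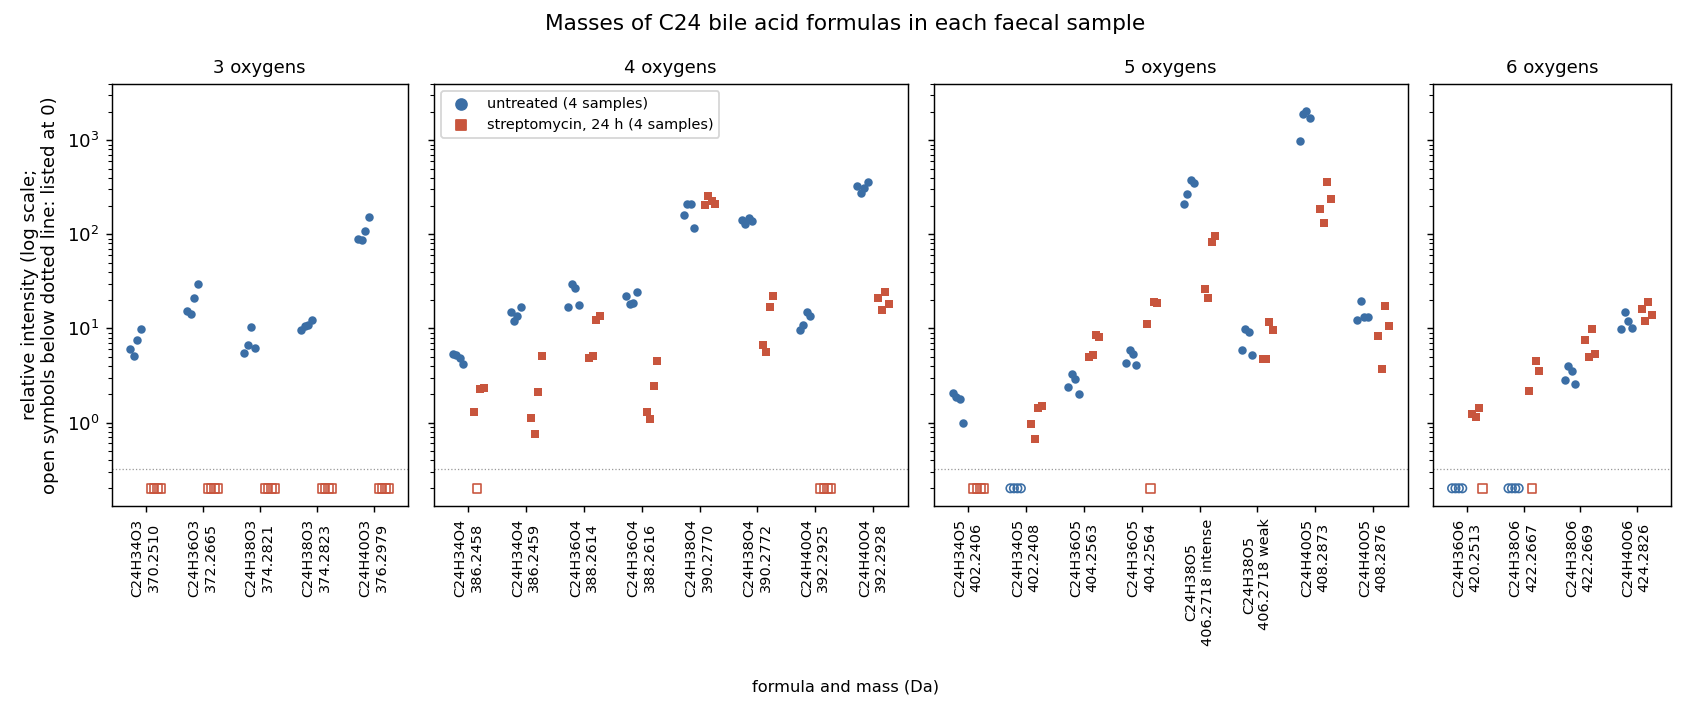
Relative intensity (log axis) of each of the 25 C24 masses in the 4 untreated samples (blue circles) and the 4 streptomycin samples (red squares), in panels by oxygen number; open symbols under the dotted line mark samples in which the mass was listed at 0. All 5 masses with 3 oxygens have open streptomycin symbols, whereas no mass with 6 oxygens was called lower.

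The deposited table puts 10 of the 15 formulas on 2 rows, 0 to 0.3 mDa apart, and does not give the ion mode of a row. The row with the highest mean over all 8 samples is called the intense row of its formula. Both acquisitions of a sample gave close values: their median absolute log2 difference was 0.04 over 155 values. The median SD between samples, over the 13 masses listed in all 8 samples, was 0.31 in the untreated and 0.67 in the streptomycin group on the log2 scale. The difference between acquisitions was therefore small beside the difference between samples. All matches lay within 0.672 ppm of their formula, inside the accuracy of 2 ppm stated in the labels.

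Trihydroxy acids, the formula C24H40O5 of cholic acid and the muricholic acids, are made by the liver and reach the faeces unconjugated after bacteria cut their conjugates. Their intense mass, 408.2873 Da, had relative intensities of 988, 1885, 2042 and 1717 in untreated samples 1 to 4 and of 188, 132, 360.5 and 238 in streptomycin samples 1 to 4. The groups did not overlap, and untreated sample 1 was the lowest of its group. The log2 change was -2.90 ± 0.36 (SE; limma adjusted p = 0.000104). This mass made up 47.9% to 62.3% of the summed C24 intensity of the untreated samples and 27.9% to 43.9% in the streptomycin samples. The weak mass of the same formula, 408.2876 Da, ranged from 12.3 to 19.8 in untreated and from 3.73 to 17.5 in streptomycin samples and did not pass (adjusted p = 0.165), though it did without streptomycin sample 3 (log2 change -1.05, limma adjusted p = 0.0431).

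Oxo-dihydroxy acids, C24H38O5, carry 1 oxo group in place of a hydroxyl, as when a bacterial hydroxysteroid dehydrogenase oxidises cholic acid. The intense row at 406.2718 Da was at 209, 265, 378 and 349 in untreated samples 1 to 4 and at 26.5, 21.0, 82.1 and 96.4 in streptomycin samples 1 to 4. All streptomycin values were below all untreated ones, with samples 3 and 4 above samples 1 and 2 of the treated group. The log2 change was -2.67 ± 0.54 (SE; limma adjusted p = 0.00214). A weak row of the same deposited mass was at 7.55 ± 2.38 and 7.69 ± 3.47 (SD, n = 4 each), and its groups overlapped.

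The dioxo-hydroxy formula C24H36O5 went the other way. Its mass of 404.2563 Da was at 2.38, 3.28, 2.87 and 2.01 in untreated samples and at 4.92, 5.22, 8.55 and 8.13 in streptomycin samples 1 to 4. Every streptomycin sample exceeded every untreated one, and the log2 change was 1.33 ± 0.25 (SE; limma adjusted p = 0.00127). The intense row, 404.2564 Da, was at 4.31, 5.95, 5.32 and 4.06 in untreated samples and at 11.1, 0, 19.1 and 18.6 in streptomycin samples 1 to 4. Streptomycin sample 2 alone was listed at 0, and the mass did not pass (adjusted p = 0.904); without that sample its log2 change was 1.70 (limma adjusted p = 0.000519). Trioxo acids, C24H34O5, the formula of dehydrocholic acid, split between rows: 402.2406 Da was at 2.07, 1.89, 1.77 and 1.00 in the untreated samples only, and 402.2408 Da at 0.957, 0.667, 1.43 and 1.48 in the streptomycin samples only.

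Dihydroxy acids, C24H40O4, are the formula of deoxycholic acid, the product of bacterial dehydroxylation of cholic acid, and of its isomers, among them the host's chenodeoxycholic acid and ursodeoxycholic acid. The mass of 392.2928 Da was at 329.9, 276, 307 and 363 in untreated samples 1 to 4 and at 21.0, 15.8, 24.7 and 17.98 in streptomycin samples 1 to 4. Values within each group were close together, the groups were far apart, and the mean was 16.1-fold lower after streptomycin. Among the 15 C24 masses listed in both groups its log2 change, -4.02 ± 0.16, was the largest in size (SE; limma adjusted p = 7.44e-08). The weak mass of the formula, 392.2925 Da, was at 9.54 to 14.8 in untreated samples, and no streptomycin sample listed it.

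Oxo-hydroxy acids, C24H38O4, include oxo forms of deoxycholic and chenodeoxycholic acid, and the formula is also that of bis(2-ethylhexyl) phthalate, a plasticiser common in laboratory plastic. The 2 rows of this formula behaved differently. The mass of 390.2772 Da was at 142, 128, 148 and 140.1 in untreated samples 1 to 4 and at 6.68, 5.59, 16.8 and 22.3 in streptomycin samples 1 to 4. These groups did not overlap, the mean was 10.8-fold lower after streptomycin, and the log2 change was -3.68 ± 0.45 (SE; limma adjusted p = 0.000103). The mass of 390.2770 Da was at 159, 209, 212 and 118 in untreated samples and at 207, 259, 224 and 212 in streptomycin samples 1 to 4. Its groups overlapped and it did not pass (log2 change 0.40 ± 0.20 SE, limma adjusted p = 0.0952). It passed after division by the median ratio (0.79, limma adjusted p = 0.00674) and with the first acquisition alone (0.48, limma adjusted p = 0.0414). With the second acquisition alone the change was 0.34 (limma adjusted p = 0.185), and after scaling to the calibrants it was -0.023. How much of either row is phthalate was not tested.

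Formulas with 4 oxygens and fewer hydrogens fell as well. The dioxo formula C24H36O4 fell on both of its rows. The weak row, 388.2616 Da, was at 18.3 to 24.2 in untreated and 1.10 to 4.52 in streptomycin samples (log2 change -3.37 ± 0.44 SE, limma adjusted p = 0.000145). The intense row of this formula, 388.2614 Da, was at 16.8, 29.5, 26.9 and 17.7 in untreated samples and at 4.85, 5.08, 12.3 and 13.7 in streptomycin samples 1 to 4. That is a smaller log2 change of -1.46 ± 0.42 (SE; adjusted p = 0.0127). The formula C24H34O4, an unsaturated dioxo acid by its hydrogen count, had its intense row, 386.2459 Da, at 14.8, 12.0, 13.6 and 16.9 and then at 1.11, 0.748, 2.10 and 5.08. No streptomycin value reached an untreated one, and the log2 change was -3.04 ± 0.56 (SE; adjusted p = 0.00122). The weak row, 386.2458 Da, was at 4.18 to 5.38 in untreated samples, at 1.29, 2.28 and 2.30 in streptomycin samples 1, 3 and 4 and listed at 0 in streptomycin sample 2. The groups did not overlap, but the row did not pass (adjusted p = 0.0548); it passed without streptomycin sample 2 (log2 change -1.37, adjusted p = 0.00130), 3 (-3.02, adjusted p = 0.0443) or 4 (-3.02, adjusted p = 0.0428), on the total-intensity and calibrant scales (adjusted p = 0.0401 and 0.0291), with log2(value + 1) (adjusted p = 0.00797) and with either acquisition alone (adjusted p = 0.0328 and 0.0359).

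Masses with 3 oxygens, the formulas of monohydroxy acids and their oxidised forms, were listed in untreated samples only. The formula C24H40O3 of lithocholic acid, which bacteria form from chenodeoxycholic acid, was matched by 376.2979 Da at 90.3, 88.0, 109 and 153 in untreated samples 1 to 4. The formula C24H38O3 of the oxo form of lithocholic acid was matched by 374.2823 Da at 9.62, 10.6, 10.8 and 12.2, and by 374.2821 Da at 5.46, 6.63, 10.4 and 6.23. C24H36O3, at 372.2665 Da, was at 15.2, 14.2, 21.0 and 30.0, and C24H34O3, at 370.2510 Da, at 6.06, 5.11, 7.59 and 9.91. Untreated sample 4 was the highest for 4 of these 5 masses. No fold is given for them, because the streptomycin samples were listed at 0 and the table holds no ion counts that would set a limit. A mass at the spacing of hydrogen chloride above C24H38O3, 410.2586 Da, was found after streptomycin only (18.7 ± 2.58, SD, n = 4), and whether it is an ion form of this acid was not tested.

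Within the untreated samples 3 of the 5 masses with 3 oxygens kept close proportions. The ratio of 372.2665 to 376.2979 Da was 0.169, 0.161, 0.192 and 0.197 in untreated samples 1 to 4, and that of 370.2510 to 372.2665 Da was 0.398, 0.360, 0.362 and 0.330. The mass of 376.2979 Da itself ranged from 88.0 to 153 over the same samples, so these 3 masses went up and down together. The rows of C24H38O3 varied more against 376.2979 Da. The ratio of 374.2821 to 376.2979 Da ran from 0.0408 to 0.0955 and that of 374.2823 to 376.2979 Da from 0.0798 to 0.121.

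Acids with 6 oxygens have 4 ring oxygens, and tetrahydroxy acids are known in mice as products of further hydroxylation in the liver. C24H40O6, at 424.2826 Da, was at 9.77, 15.05, 11.9 and 10.1 in untreated samples and at 16.3, 12.1, 19.2 and 14.01 in streptomycin samples 1 to 4. Its groups overlapped and it did not pass (log2 change 0.40 ± 0.20 SE, limma adjusted p = 0.0891); it passed without untreated sample 2 (0.52, adjusted p = 0.0369) or streptomycin sample 2 (0.51, adjusted p = 0.0416) and by the median ratio (0.78, adjusted p = 0.00568), but on the calibrant scale the change was -0.030. The oxo-trihydroxy formula C24H38O6, at 422.2669 Da, was at 2.86, 3.95, 3.54 and 2.54 and then at 7.52, 5.01, 9.91 and 5.39. Each streptomycin value was above each untreated one, and the log2 change was 1.08 ± 0.25 (SE; adjusted p = 0.00494), but 0.65 on the calibrant scale, where it did not pass (adjusted p = 0.0694). Its second row, 422.2667 Da, was listed at 0 in all untreated samples and at 2.17, 0, 4.54 and 3.55 in streptomycin samples 1 to 4. The dioxo formula C24H36O6, at 420.2513 Da, was at 1.25, 1.13, 1.43 and 0 in streptomycin samples and at 0 in the untreated ones. Neither of these masses was listed in all 4 streptomycin samples.

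**Figure D2:**
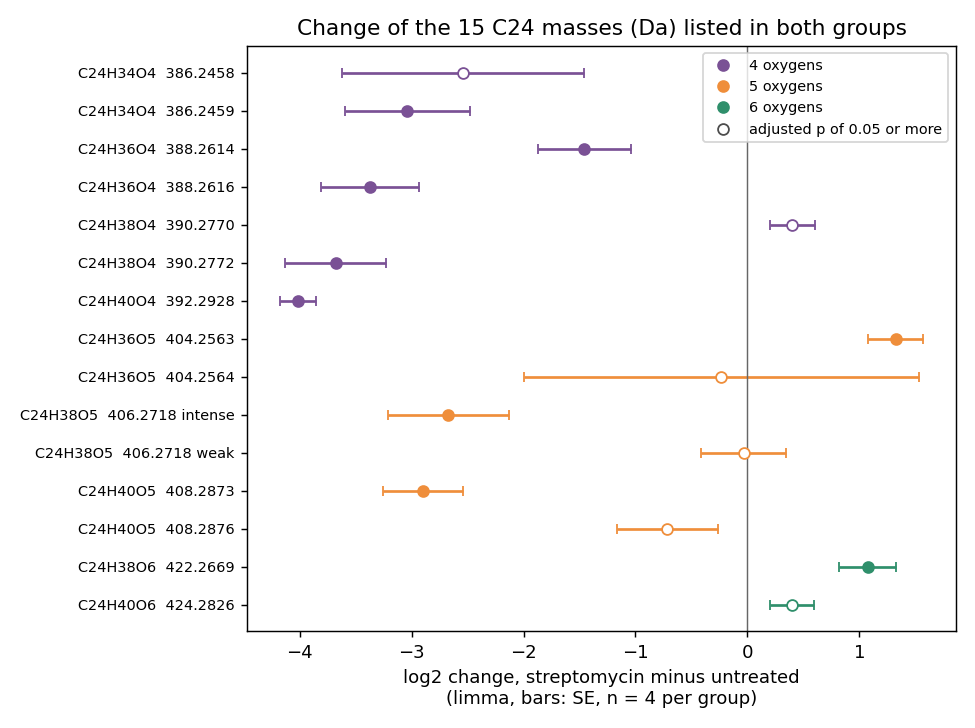
Log2 change (streptomycin minus untreated, limma, bars show the SE, 4 samples per group) of the 15 C24 masses listed in both groups, ordered by oxygen and hydrogen number; filled points have an adjusted p under 0.05. The point for C24H40O4 at 392.2928 Da lies farthest to the left at -4.02, and C24H36O5 at 404.2563 Da farthest to the right at 1.33.

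The calls depended on which of the 2 rows of a formula was taken. Of the 10 formulas with 2 rows, 4 had the same call on both rows and 6 had different calls. For C24H40O5 the ratio of the intense to the weak row was 80.3 to 156 in untreated and 20.6 to 35.4 in streptomycin samples. For C24H38O5 it was 26.7 to 67.4 and 4.43 to 9.97. For C24H38O4 the ratio of 390.2770 to 390.2772 Da was 0.841 to 1.64 and then 9.48 to 46.3, and for C24H36O4 that of 388.2614 to 388.2616 Da was 0.732 to 1.61 and then 3.03 to 4.98. In all 4 formulas with both rows listed in all 8 samples, the ratios of the groups thus did not overlap. These ratios were set out after the values were seen and are a description; that the rows are different isomers, ion modes or other compounds of the same mass was not tested.

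The responses of formulas 1 step apart were compared by the log2 ratio of their masses within a sample, which does not depend on how samples are scaled. A step is 1 oxygen at the same hydrogen number or 2 hydrogens at the same oxygen number. Of 9 such pairs of most intense rows, all listed in all 8 samples, 8 differed between the groups (exact two-sided permutation p = 0.0286 each, the smallest that 4 against 4 samples allow; adjusted p = 0.0321 over the 9 pairs). Intervals are the 97.1% intervals from the same test, and pairs that share a mass are not independent. How often pairs of other masses differ was not counted, so the count is not shown to be particular to these formulas. Single masses without overlap between the groups were common, at 39.7% lower and 20.1% higher of the 633 masses listed in both groups.

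For steps of 1 oxygen, the less oxygenated acid fell relative to the more oxygenated one in 3 of 4 pairs. The ratio of C24H40O4 to C24H40O5, dihydroxy to trihydroxy acids, was 0.146 to 0.334 in untreated and 0.0684 to 0.120 in streptomycin samples, a log2 difference of -1.12 (interval -2.29 to -0.29). The ratio of C24H40O5 to C24H40O6 went from a range of 101.1 to 171 to one of 11.0 to 18.8, a difference of -3.29 (interval -3.97 to -2.43). The ratio of C24H38O5 to C24H38O6 differed by -3.75 (interval -5.29 to -1.91). The exception was C24H38O4 over C24H38O5, at 3.08 (interval 1.48 to 5.19). With 390.2772 Da in place of 390.2770 Da and all other rows kept, this difference was -1.003 (interval -1.73 to -0.55; exact permutation, adjusted p = 0.0367), and with the other row of both formulas it was -3.65 (interval -4.52 to -2.48). Both alternatives were chosen after seeing the data. A further set took the other row of each formula where all 8 samples listed it. There all 5 steps of 1 oxygen had the same sign, from -4.70 to -1.11, and 7 of 11 pairs passed (exact permutation, adjusted p = 0.0449 for each of the 7). The rows 386.2459, 392.2928, 422.2669 and 424.2826 Da were kept in this set. It is thus not independent of the first set, and C24H38O6 over C24H40O6 is the same comparison in both.

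Steps of 2 hydrogens gave no common direction. C24H38O5 and C24H40O5, the oxo-dihydroxy and trihydroxy acids, were not shown to differ on their intense rows: their ratio was 0.141 to 0.211 in untreated and 0.141 to 0.406 in streptomycin samples, a log2 difference of 0.22 (interval -0.58 to 1.53; exact permutation p = 0.657), and a difference of over 2-fold is still inside the interval. With the row nearest to each formula mass, which takes 408.2876 Da for C24H40O5, the difference was -1.96 (interval -3.18 to -0.58, exact permutation, adjusted p = 0.0286). Both rows of C24H38O5 are equally near, and the intense one was used there. With the weak row of both formulas the difference was 0.68 (interval -0.28 to 1.70, exact permutation, adjusted p = 0.0943). C24H38O6 over C24H40O6 differed by 0.68 (interval 0.37 to 1.03), the oxo form gaining on the tetrahydroxy acid. C24H34O4 over C24H36O4 and C24H36O4 over C24H38O4 differed by -1.58 (interval -2.70 to -0.13) and -1.86 (interval -2.94 to -0.71). Neither passed with the other rows, where 386.2459 Da was kept for C24H34O4 and the differences were 0.33 and 0.31 (exact permutation, adjusted p = 0.0943 each). The latter was 2.22 with only C24H38O4 changed to its other row (exact permutation, adjusted p = 0.0367). C24H38O4 over C24H40O4 differed by 4.42 (interval 3.58 to 5.66) with 390.2770 Da and by 0.34 (interval -0.60 to 1.69; exact permutation, adjusted p = 0.571) with 390.2772 Da.

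**Figure D3:**
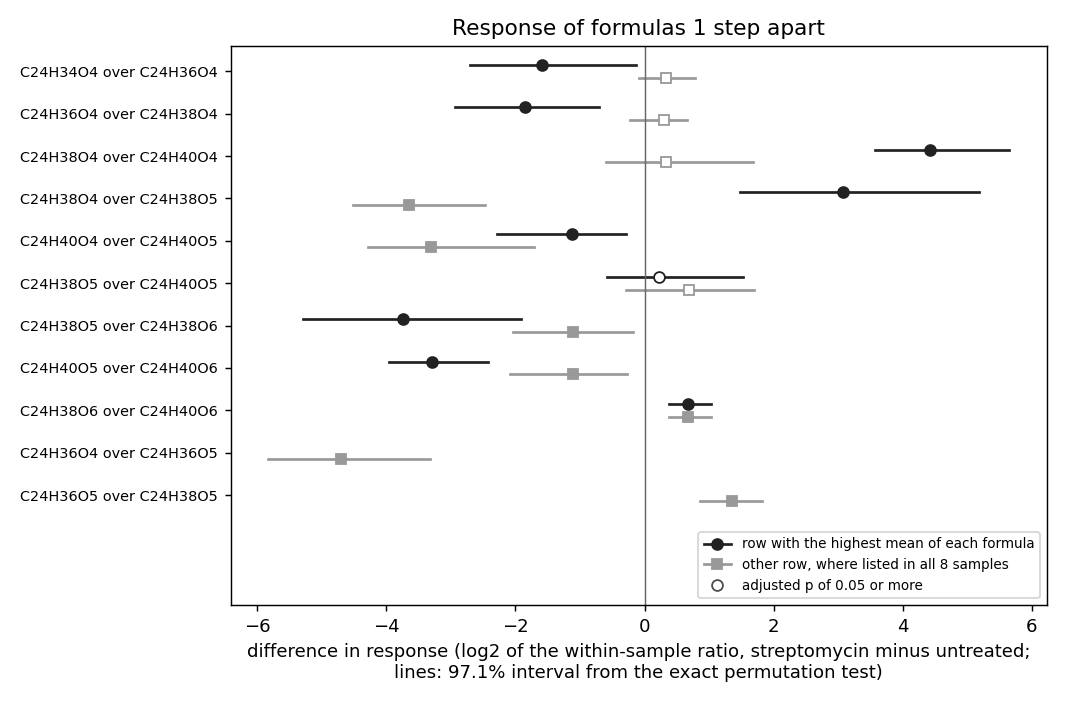
Difference between groups in the within-sample log2 ratio of 2 formulas 1 step apart, first formula over second, with 97.1% intervals from the exact permutation test. Black circles use the most intense row of each formula. Grey squares use the other row where it is listed in all 8 samples and keep the intense row elsewhere. Values below 0 mean that the first formula fell relative to the second after streptomycin; C24H38O4 over C24H38O5 changes sign between the row choices, from 3.08 to -3.65.

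Summed over the 25 masses, C24 intensity was 2063, 3023, 3372 and 3012 in untreated samples 1 to 4 and 514, 473, 820.4 and 683 in streptomycin samples 1 to 4. That was 10.4% to 17.1% of all intensity in the untreated and 2.19% to 3.68% in the streptomycin samples. The groups did not overlap, and the mean sum was 4.60-fold lower after streptomycin, or 6.78-fold without 390.2770 Da. No test was made on these sums. The sum over masses with 5 oxygens went from 1989 ± 532 to 324 ± 148 and that over masses with 4 oxygens from 708 ± 25.6 to 273 ± 20.4 (SD, n = 4 each). The 6-oxygen masses summed to 14.9 ± 3.03 and 25.9 ± 7.15, with overlapping groups.

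The composition of the remaining signal differed too. Masses with 3 oxygens held 4.12% to 7.01% of the C24 sum in untreated samples and were at 0 in streptomycin samples, and masses with 6 oxygens held 0.418% to 0.629% and 3.36% to 5.29%. The share with 4 oxygens was 22.1% to 33.9% and then 34.7% to 60.7%, but without 390.2770 Da it was 16.9% to 28.4% and then 10.2% to 13.98%, so its direction turned with that one row. The share with 5 oxygens was 59.4% to 72.7% and then 35.4% to 61.0%, where the groups overlapped. Without 390.2770 Da it was 64.3% to 77.9% and then 78.3% to 84.0%, higher after streptomycin with no overlap. The intensity-weighted mean number of oxygens without that row was 4.59 to 4.75 in untreated and 4.91 to 4.97 in streptomycin samples, with no overlap; with the row it was 4.54 to 4.70 and 4.43 to 4.70. Fully hydrogenated formulas, with 40 hydrogens, held 69.8% to 75.9% and then 34.6% to 51.4% of the sum, but 75.7% to 81.5% and then 59.5% to 76.5% without 390.2770 Da, where the groups overlapped. The intensity-weighted mean number of hydrogens was 39.28 to 39.44 and then 38.63 to 38.89; without 390.2770 Da it was 39.39 to 39.55 and then 38.92 to 39.39, a much smaller gap.

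**Figure D4:**
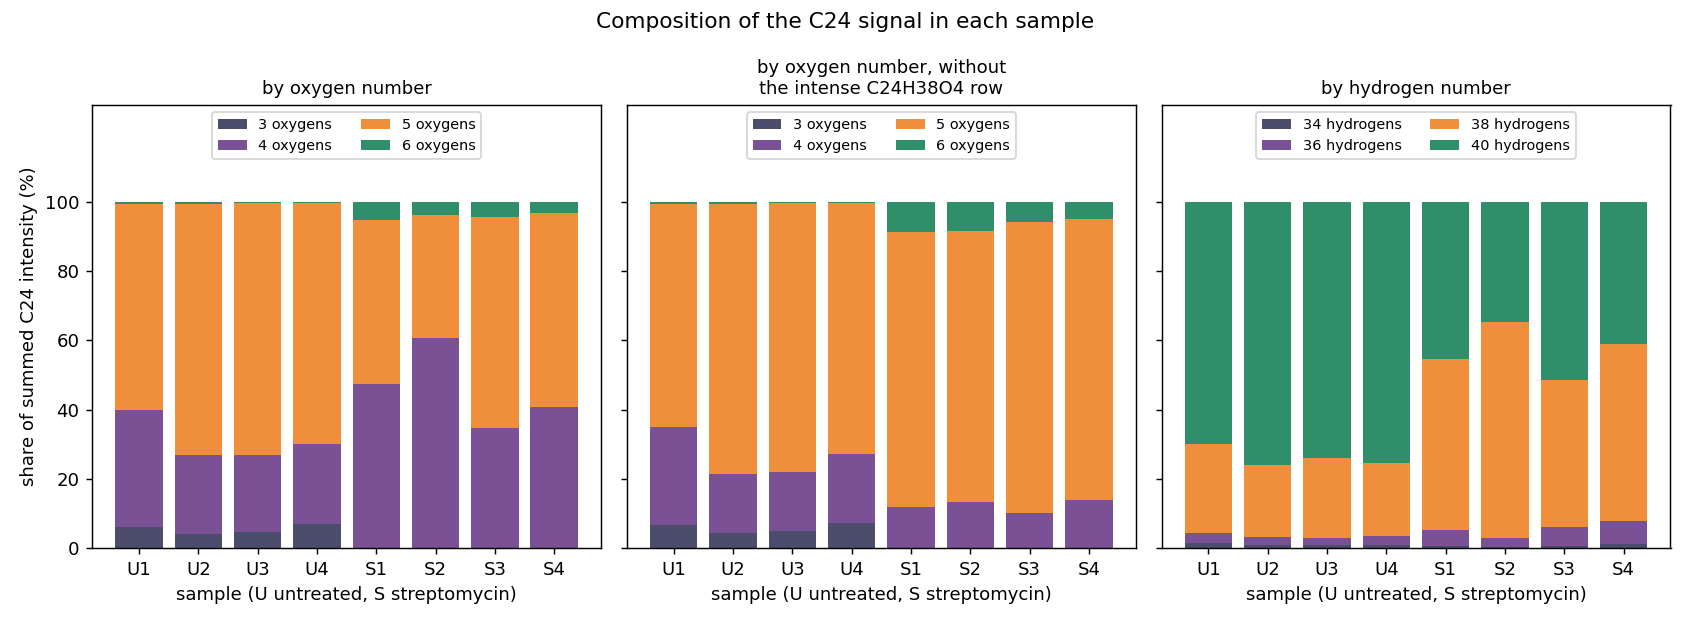
Share (%) of the summed C24 intensity by oxygen number, by oxygen number without 390.2770 Da, and by hydrogen number, in untreated samples (U1 to U4) and streptomycin samples (S1 to S4). The 3-oxygen share is at 0 in all streptomycin samples, and the 4-oxygen share is higher there with 390.2770 Da and lower without it.

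Many of these formulas are 1 water apart, so the mass of one acid is also that of another that has lost water, in the gut or in the instrument. C24H36O5 at 404.2563 Da and C24H38O6 at 422.2669 Da, which are such a pair, had a ratio of 0.831, 0.830, 0.811 and 0.791 in untreated samples 1 to 4 and of 0.654, 1.04, 0.863 and 1.51 in streptomycin samples. The ratio was nearly constant before the dose and spread 2.31-fold after it. For the weak row of C24H38O5 and the 388.2614 Da row of C24H36O4, also 1 water apart, the ratio of the latter to the former was 2.86 to 3.42 in untreated and 1.013 to 1.42 in streptomycin samples. C24H38O3, with 3 oxygens, is 1 water below C24H40O4. The ratio of 374.2823 to 392.2928 Da was 0.0292 to 0.0385 in untreated samples, and 374.2823 Da was at 0 in the streptomycin samples. These pairs were among the steadier ones, and a steady ratio was not the rule for formulas 1 water apart. Over all such pairs of rows compared in untreated samples, the spread ran from 1.05-fold, for 404.2563 over 422.2669 Da, to 3.76-fold, for 372.2665 over 390.2770 Da. With the other row of C24H38O3, 374.2821 over 392.2928 Da, it was 2.05-fold, against 1.32-fold with 374.2823 Da. The part of water loss in any of these masses was not tested.

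Samples of the streptomycin group were more unequal than untreated ones. In 11 of the 15 masses listed in both groups, streptomycin samples 3 and 4 were both above samples 1 and 2, as for 390.2772 Da and the intense row of 406.2718 Da. Total intensity over all masses, 21600 to 23221 in this group, varied far less than these masses. The share of all 633 masses in both groups with this order of samples was not counted, so the order is not shown to be particular to the C24 masses. Of the conjugates of the 16 formulas, 20 masses matched taurine conjugates and all 20 were called higher, 19 of them listed in streptomycin samples only and so called by construction. Of all 2429 masses 52.7% were called higher and 36.7% lower, and 1150 were listed in streptomycin samples only. Of 2 masses of glycine conjugates 1 was called lower and 1 higher, and of 7 masses of sulfates 1 was lower and 3 higher, with 3 not passing. All 3 masses of the C27 acids, intermediates of bile acid synthesis, were lower.

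The scaling of the samples bears on the calls near 0. Total intensity was 19761 to 20140 in untreated and 21600 to 23221 in streptomycin samples, and the mean of the 2 calibrant masses, 108 to 130 and 153 to 190.2, was higher in the latter. As deposited, 7 of the 15 C24 masses in both groups were lower and 2 higher; after division by total intensity 8 and 2, by the median ratio 7 and 4, and on the calibrant scale 8 and 1. The median log2 change of all masses in both groups was -0.47 as deposited, -0.63, -0.08 and -0.87 on these scales, and that of the 15 masses -1.46, -1.62, -1.07 and -1.88.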

How the data were processed

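Per the labels, acetonitrile extracts were infused into an ion cyclotron resonance mass spectrometer with 2 acquisitions per sample in each ion mode. The authors deposited 1 table of neutral masses with a relative intensity, on a linear scale, per acquisition; peak picking, alignment, the reference of the intensities and the joining of ion modes are not given in the sources used here. Where a group has a mass at all, the deposited values list it in 6 or more of its 8 acquisitions. The value of a sample was the mean of both acquisitions, with 0 set to the lowest sample value of the table, 0.0738, before log2.

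All 2429 masses met the minimum of 3 listing samples in some group and were fitted together with limma's lmFit and eBayes (4 untreated, 4 streptomycin, no block) with Benjamini-Hochberg adjustment over all of them; calls are at 0.05. Log2 changes of masses in one group only are not reported. The fit was tested on simulated data. Within-sample ratios were compared by exact permutation tests over samples. Nothing in the labels says that samples came from separate animals, so p-values reflect only the spread of these samples, part of which may be technical. Each formula's intense row, with the highest mean over the 8 samples, is named with its values, and all other rows by range or values. The members and lists were chosen with earlier results of these data known. Alternatives were other values for undetected masses, filters, scalings, single acquisitions, left-out samples, a replicate block, eBayes with a trend, the methods' t-test, tolerances and row choices. Scaling to the calibrants, the mean over listed acquisitions, a fit of masses in both groups alone and leaving out 390.2770 Da were added after seeing the data. So were the choices of the other row of C24H38O4 alone, or of each formula where all 8 samples listed that row. Same-numbered samples were not taken as pairs. The fit ran in limma 3.58.1 (R 4.3.3); ratios and figures were made in Python 3.11.15 (pandas 2.3.3, numpy 2.4.6, matplotlib 3.10.9).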

Additional observations from a re-analysis of the deposited data

Results flagged for a closer look

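For the weak row of C24H40O5, 408.2876 Da, untreated sample 2 stood at 19.8, far above the other untreated samples: its gap to the next was 0.878 of the group's range, over Dixon's limit for 4 samples. It was the only such value in the 40 groups of 4 C24 values looked at, where chance gives about 1 in 20.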

How the results depend on the processing

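The counts of C24 masses lower and higher (14 and 5 in all, 7 and 2 among masses in both groups) stayed within 1.5 times under most settings. With the nearest row of each formula only they were 8 and 3 in all and 3 lower in both groups; with the most intense row only 2 were higher in all and 1 in both groups. Both settings count fewer rows. Among masses in both groups 4 were higher by the median ratio and 1 on the calibrant scale. Leaving out one sample gave 14 to 16 lower and 5 to 7 higher in all, and 7 to 9 lower and 2 to 4 higher in both groups, the 4 without streptomycin sample 2. The methods' t-test gave 14 lower and 5 higher, with and without adjustment. With the replicate block the counts were 14 lower and 5 higher, and it changed no call of a C24 mass. The numbers were not taken as pairs: deviations of same-numbered samples correlated at 0.04, 0.03, 0.11 and 0.12, and not every sample correlated best with its own number. The log2 ratio of summed C24 intensity, -2.20, was -2.59 on the calibrant scale and -2.76 without 390.2770 Da, and -2.36 to -2.09 when samples were left out.

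Masses that did not pass changed sign as follows. For 404.2564 Da, -0.23, the log2 change was 0.50 with log2(value + 1), 0.062 by the median ratio, 0.050 and 0.013 with single acquisitions, and -0.97 to 1.70 without one sample. For the weak row of 406.2718 Da, -0.03, it was 0.36 by the median ratio, 0.0080 with the first acquisition and -0.27 to 0.16 without one sample. On the calibrant scale 390.2770 Da was at -0.023 and 424.2826 Da at -0.030. The response difference of C24H38O5 over C24H40O5, 0.22, was -1.96 with the nearest rows (exact permutation, adjusted p = 0.0286). It was 0.68 with the weak rows of both formulas (exact permutation, adjusted p = 0.0943) and -0.087 to 0.42 without one sample. With the other rows where all 8 samples listed them, C24H34O4 over C24H36O4 was at 0.33, C24H36O4 over C24H38O4 at 0.31 and C24H38O4 over C24H38O5 at -3.65. With the other row of C24H38O4 only, the last 2 were at 2.22 and -1.003, and 7 of 9 pairs were called. Apart from sign changes that follow from the rows, samples or scaling used, the cause was not tested. Pairs called numbered 8 of 9, and 10 of 10 with the nearest rows. With a sample left out only the size of a difference was taken, and no pair was tested. An exact test over 4 same-numbered pairs cannot go below p = 0.125, so no pair could pass that way and none was tested. The number of ions behind an intensity is unknown, so a value of 0 gives no limit.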
